A study of Mus musculus with 4 samples.

Results

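A set of 10 protein-coding genes was followed across nuclei of the mouse medial cortex: H3f3b, Ptma, Marcks, Marcksl1, Mex3c, Irs2, Irf2bpl, Fem1b, Cstf2t and Zfp146. They are 10 of the 56884 genes in the count matrices and were selected as short or intron-poor mRNAs with lower levels in Dnmt1 KO than in control libraries in several classes of nuclei. Their Dnmt1 KO to control differences are therefore a description, with no test. The data are single-nucleus RNA-sequencing (snRNA-seq) of the medial neocortex at E16.5, with 2 libraries per genotype. Control mice were Sst-Cre/tdTomato. Dnmt1 KO mice were Sst-Cre/tdTomato/Dnmt1 loxP2, so both groups carried the Cre driver and the tdTomato reporter. Sst-Cre acts in postmitotic cells of the somatostatin lineage, and the progenitors and excitatory neurons sequenced alongside them are outside the lineage in which Cre is driven. Both Dnmt1 KO libraries and control replicate 1 carried batch label 1 and held 8 sublibraries each, whereas control replicate 2 carried batch label 2 and held 2 sublibraries.

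An mRNA is transcribed, spliced and then exported from the nucleus, so the nuclear pool of a gene holds unspliced precursor and spliced message in proportions that depend on its introns. Genes with long introns leave many intronic bases in nuclei, whereas a single-exon gene contributes only exonic sequence. The 10 genes were chosen from the short, intron-poor end, so their structure is given as a description. Of the 15424 protein-coding genes tested between genotypes, the median gene span was 28712 bases and the median number of exons in the canonical transcript was 9. All 10 genes were shorter than that median span, at 3491 to 24819 bases, and 8 of the 10 had at most 2 exons, against 7.68% of the tested protein-coding genes. H3f3b with 4 exons and Ptma with 5 were the other two.

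DNMT1 copies methylation at CG pairs, so 4 of the promoters are printed to show how many CG pairs these genes carry near their starts. Each window runs from 250 bases before to 50 bases after the start of the canonical transcript in GRCm39, is written 5′ to 3′ on the strand of the gene, and has its CG pairs in capitals. Methylation was not measured in these libraries.
Ptma, chr1:86453848-86454147, plus strand: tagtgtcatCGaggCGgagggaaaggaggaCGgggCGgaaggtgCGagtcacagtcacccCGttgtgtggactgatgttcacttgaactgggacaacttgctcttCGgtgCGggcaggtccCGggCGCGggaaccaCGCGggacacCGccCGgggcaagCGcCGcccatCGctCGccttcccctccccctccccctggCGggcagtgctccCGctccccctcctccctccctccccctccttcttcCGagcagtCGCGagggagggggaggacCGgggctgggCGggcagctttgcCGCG
Irf2bpl, chr12:86931523-86931822, minus strand: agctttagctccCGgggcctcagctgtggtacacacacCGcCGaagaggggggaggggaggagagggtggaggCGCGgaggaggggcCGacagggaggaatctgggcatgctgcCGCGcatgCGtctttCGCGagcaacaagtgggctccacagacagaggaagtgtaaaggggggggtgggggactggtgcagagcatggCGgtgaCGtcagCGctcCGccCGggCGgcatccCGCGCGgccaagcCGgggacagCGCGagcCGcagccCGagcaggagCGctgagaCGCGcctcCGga
H3f3b, chr11:115915287-115915586, minus strand: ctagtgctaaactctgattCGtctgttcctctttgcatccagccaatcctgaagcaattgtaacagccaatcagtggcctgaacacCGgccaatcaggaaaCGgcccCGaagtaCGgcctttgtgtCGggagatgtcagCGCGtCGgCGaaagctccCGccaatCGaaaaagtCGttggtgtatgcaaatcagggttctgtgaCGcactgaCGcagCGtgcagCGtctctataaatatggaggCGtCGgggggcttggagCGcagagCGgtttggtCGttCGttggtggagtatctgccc
Marcksl1, chr4:129406038-129406337, plus strand: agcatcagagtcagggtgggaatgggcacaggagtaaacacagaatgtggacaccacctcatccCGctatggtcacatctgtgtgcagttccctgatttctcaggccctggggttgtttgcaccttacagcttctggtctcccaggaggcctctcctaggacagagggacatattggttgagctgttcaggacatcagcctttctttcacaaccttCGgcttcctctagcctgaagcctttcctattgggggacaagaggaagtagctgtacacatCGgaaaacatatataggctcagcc

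The Ptma and Irf2bpl windows are dense in CG, with 28 and 29 pairs, and the Marcksl1 window holds 3. The H3f3b window holds 23. Chromosome 18, which holds Mex3c, was left out of the windows and of the background. Of the 9 windows examined, 8 had at least the median of 11 pairs found over 21160 protein-coding promoters, and the range was 3 to 32. A set of 3 motifs was searched on both strands, none of which contains another. CCAAT was present in 4 of the 9 windows and in 40.0% of all promoters. GGGCGG was present in 6 of the 9 windows and in 42.4% of all promoters. TATAAA was present in 1 of the 9, the H3f3b window, and in 13.3% of all promoters. The density of CG pairs thus varied among the genes.

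Barcodes with 1500 to 60000 transcripts were retained as nuclei, which left 4905 to 12064 nuclei per library and a median of 12274 to 12401 transcripts per nucleus in batch 1 and 21140 in control replicate 2. No cell barcode was shared between any pair of libraries. Dnmt1 itself stood at 61.8 counts per 1000000 transcripts (CPM) in Dnmt1 KO replicate 1, 47.5 in replicate 2, 59.6 in control replicate 1 and 56.0 in control replicate 2, where most nuclei are outside the Sst lineage. In nuclei with at least 1 Sst and 1 Gad2 transcript it rested on 18, 99, 67 and 46 transcripts in the same order, at 76.1, 46.1, 81.2 and 66.5 CPM. The library labelled Dnmt1 KO replicate 1 was thus not below both controls. Counts per gene cover exons outside the deleted part as well, so they are no check of the deletion. Nuclei were assigned to 5 classes by marker scores relative to all nuclei, and each class is named after its markers: radial glia-like, intermediate progenitor-like, upper layer-like, deep layer-like and MGE interneuron-like. Radial glia-like nuclei summed to 1866 CPM over their own 8 markers against 85.2 to 434 CPM in the other 4 classes, and intermediate progenitor-like nuclei to 820 CPM over theirs against 18.1 to 71.3 CPM. In the radial glia-like class the markers of MGE interneurons (3767 CPM) and deep layers (2252 CPM) exceeded the class's own in summed level, and in the intermediate progenitor-like class those of upper layers (8142 CPM), deep layers (3329 CPM) and MGE interneurons (2227 CPM) did.

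Over all retained nuclei, every one of the 10 mRNAs was lower in both Dnmt1 KO libraries than in both control libraries. The fitted log2 fold change (Dnmt1 KO minus control) ran from -1.14 for Ptma to -0.40 for Mex3c, with a median of -0.71. These are the values on which the genes were chosen, and 20.7% of the 21516 genes tested had the same order of libraries. Under edgeR's quasi-likelihood test 0% of the 21516 genes passed an adjusted p of 0.05, while 1612 had an unadjusted p below 0.05 and DESeq2 called 196. Of the 10 mRNAs, edgeR called 0. DESeq2 called 7 of them over all retained nuclei, among its 196 genes, and 3 in deep layer-like nuclei, among its 18 genes. These calls use the contrast on which the genes were chosen, so nothing is read from them.

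**Figure D1:**
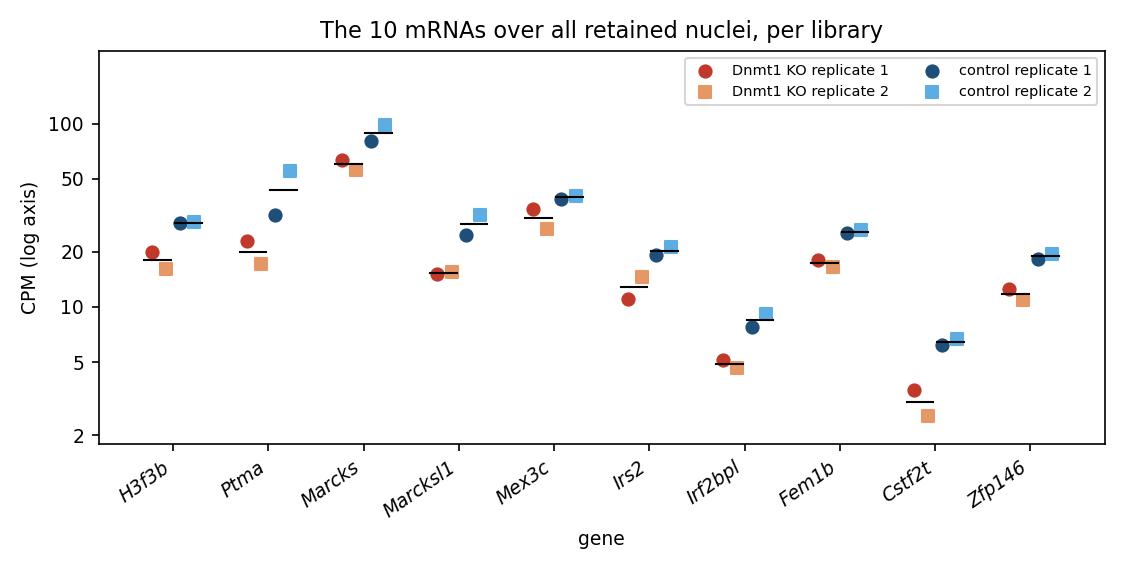
Level of each of the 10 mRNAs in CPM (log axis) over all retained nuclei, with 1 point per library and a line at the mean of the 2 libraries of a genotype. In each gene both Dnmt1 KO points sit below both control points, and for Ptma control replicate 2, at 55.1 CPM, stands well above control replicate 1, at 31.7 CPM.

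H3f3b, which encodes the histone variant H3.3 that is deposited outside DNA replication, lies on chromosome 11, 115912738 to 115918788, minus strand, and overlaps the long noncoding RNA gene Gm74516 on the same strand. Its level was 19.8 CPM in Dnmt1 KO replicate 1, 16.1 in replicate 2, 28.6 in control replicate 1 and 29.1 in control replicate 2, an order kept in the pairs of values that follow. The controls differed little between themselves, and the fold change was -0.70 ± 0.13 (SE). Ptma, on chromosome 1, 86454098 to 86458434, plus strand, encodes prothymosin alpha, a very acidic nuclear protein that binds histones. It stood at 22.9 and 17.2 CPM in KO libraries versus 31.7 and 55.1 CPM in controls, with a fold change of -1.14 ± 0.31. Much of this came from control replicate 2, without which the difference was -0.66. Ptma has processed copies in the genome, of which Ptma-ps2 was counted at 0.584 to 1.14 CPM, so reads of near-identical copies could have been split in counting, and it overlaps the long noncoding RNA gene Gm57144 on the opposite strand.

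Marcks, a protein kinase C substrate which links the membrane to actin, lies on chromosome 10, 37009239 to 37014942, minus strand. It was counted from 4804 to 11029 transcripts per library. Its level was 63.8 and 56.1 CPM in KO libraries versus 80.3 and 97.8 CPM in controls. Its relative Marcksl1, on chromosome 4, 129406288 to 129409778, plus strand, was at 15.1 and 15.6 CPM in KO libraries versus 24.8 and 31.9 CPM in controls. The Dnmt1 KO libraries agreed closely in Marcksl1 and the controls less so. Fold changes were -0.59 ± 0.14 for Marcks and -0.90 ± 0.16 for Marcksl1.

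Irs2, the adaptor that carries insulin and IGF receptor signals to PI3 kinase, lies on chromosome 8, 11034681 to 11059499, minus strand, and overlaps 2 long noncoding RNA genes on the opposite strand. Its level was 11.0 and 14.7 CPM in KO libraries versus 19.2 and 21.2 CPM in controls, a fold change of -0.67 ± 0.18. Fem1b, a substrate receptor of the CUL2 ubiquitin ligase, lies on chromosome 9, 62698869 to 62719237, minus strand. It was at 18.1 and 16.6 CPM in KO libraries versus 25.3 and 26.3 CPM in controls, with the smaller spread of the pair and a fold change of -0.59 ± 0.10.

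Cstf2t encodes the tau variant of a subunit of the cleavage stimulation factor, which acts at mRNA 3′ ends. It is a single-exon gene on chromosome 19, 31060237 to 31064469, plus strand, inside Prkg1 on the opposite strand. Its level was 3.50 and 2.55 CPM in KO libraries versus 6.20 and 6.67 CPM in controls, from 264 to 752 transcripts per library, and its fold change of -1.12 ± 0.21 was close to that of Ptma. Mex3c, an RNA-binding ubiquitin ligase gene on chromosome 18, 73705769 to 73725646, plus strand, was at 34.2 and 26.7 CPM against 38.9 and 40.2 CPM, or -0.40 ± 0.14, and it was at -0.23 without Dnmt1 KO replicate 2. Irf2bpl, a nuclear regulator that is also a single-exon gene, on chromosome 12, 86927475 to 86931572, minus strand, was at 5.12 and 4.62 CPM in KO libraries versus 7.78 and 9.21 CPM in controls, or -0.82 ± 0.16. The zinc finger gene Zfp146, on chromosome 7, 29859912 to 29869215, minus strand, was at 12.6 and 10.9 CPM in KO libraries versus 18.3 and 19.5 CPM in controls, or -0.71 ± 0.12.

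The same order of libraries held in most classes. Both Dnmt1 KO libraries were below both controls for 8 of the 10 mRNAs in radial glia-like nuclei (background 23.8% of genes tested), for 10 in intermediate progenitor-like (24.4%), 10 in upper layer-like (21.7%), 10 in deep layer-like (23.6%) and 9 in MGE interneuron-like nuclei (26.6%). Those counts are what the genes were chosen for, and nothing is read from them. edgeR called 0% of the genes in each of the 5 classes, with 406 to 898 genes at an unadjusted p below 0.05 and 2 to 35 called by DESeq2. Mex3c kept the order in 4 of the 5 classes, Irf2bpl in 3 and the other 8 genes in all 5.

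**Figure D2:**
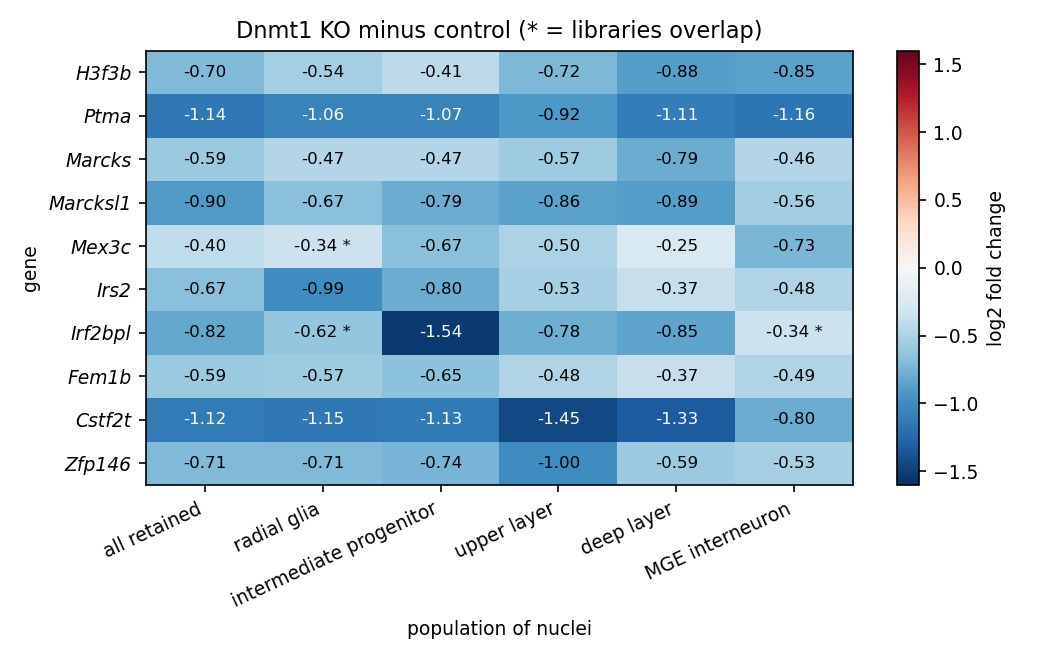
Fitted log2 fold change (Dnmt1 KO minus control, edgeR) of the 10 mRNAs over all retained nuclei and in 5 classes, coloured from blue (lower in Dnmt1 KO) to red. All 60 values are below 0, from -1.54 for Irf2bpl in intermediate progenitor-like nuclei to -0.25 for Mex3c in deep layer-like nuclei (-0.15 without Dnmt1 KO replicate 2), and the 3 cells with a star are those in which the libraries of the genotypes overlap.

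Exceptions came from single libraries. Mex3c in radial glia-like nuclei was at 48.9 and 28.2 CPM in KO libraries versus 48.9 and 51.0 CPM in controls, so Dnmt1 KO replicate 1 matched control replicate 1. Irf2bpl in the same class was at 7.70 CPM in both Dnmt1 KO libraries and in control replicate 1, and at 16.4 CPM in control replicate 2, so control replicate 2 alone set that difference. In MGE interneuron-like nuclei Irf2bpl was at 10.5 and 6.15 CPM in KO libraries versus 9.90 and 11.0 CPM in controls, from 36 to 88 transcripts per library. The lowest fold change, Irf2bpl in intermediate progenitor-like nuclei, rested on 5 and 11 transcripts in the KO libraries, against 20 and 25, and was -1.02 without Dnmt1 KO replicate 1.

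Ptma had the narrowest range of fold changes over the 5 classes, from -1.16 to -0.92, and Irf2bpl the widest, from -1.54 to -0.34. The Ptma range rested on control replicate 2, without which its values ran from -0.90 in MGE interneuron-like to -0.30 in upper layer-like nuclei. Cstf2t in deep layer-like nuclei was at 2.66 and 2.26 CPM in KO libraries versus 6.34 and 6.18 CPM in controls. Upper layer-like nuclei held 2.21 and 2.93 CPM versus 6.59 and 8.44 CPM. H3f3b in deep layer-like nuclei was at 9.30 and 11.6 CPM against 19.7 CPM in each control. Irs2 in radial glia-like nuclei stood at 24.7 and 32.6 CPM versus 49.9 and 67.6 CPM in controls. The deep layer-like class held 5.02 and 7.70 CPM of it versus 8.76 and 8.17 CPM, where its fold change of -0.37 was -0.11 without Dnmt1 KO replicate 1 and -0.72 without Dnmt1 KO replicate 2. Whether the classes differ in the size of the difference was not tested.

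The nuclei nearest to the deleted lineage, those with an Sst and a Gad2 transcript, numbered 16 and 136 in KO libraries versus 40 and 27 in controls. Summed over the 10 mRNAs they stood at 169 and 183 CPM in KO libraries versus 241 and 329 CPM in controls. In Dnmt1 KO replicate 1 no gene of the 10 rested on more than 15 transcripts in these nuclei, so single genes could not be compared at this depth. The summed level over all retained nuclei was 206 and 181 CPM in KO libraries versus 281 and 337 CPM in controls, and in radial glia-like nuclei it was 335 and 285 CPM against 423 and 567 CPM.

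Other protein-coding genes were then sorted by structure, with the 10 genes left out. The median log2 fold change over all retained nuclei was -0.32 over 368 genes with 1 exon, -0.18 over 808 genes with 2 exons, -0.15 with 3, -0.11 with 4, -0.08 with 5 and 0.03 over 10956 genes with 6 or more. The medians were higher with each added exon. In deep layer-like nuclei the same medians ran from -0.39 for 1 exon to 0.03 for 6 or more, in radial glia-like nuclei from -0.25 to 0.03, and in MGE interneuron-like nuclei from -0.29 to 0.02. Span gave a like order, from -0.16 over 1169 genes of up to 5 kb to 0.08 over 1972 genes of 100 to 300 kb, although genes over 300 kb were at 0.06.

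The share of genes with both Dnmt1 KO libraries below both controls was 43.8% of single-exon genes and 14.1% of genes with 6 or more exons. As a description across 15414 genes, which are not independent replicates, Spearman's rho of the fold change was 0.30 with exon number, 0.25 with span and -0.22 with the exonic percent of the span. Among all transcripts, single-exon genes other than Irf2bpl and Cstf2t took 0.244% and 0.236% in KO libraries versus 0.264% and 0.294% in controls. In upper layer-like nuclei this share overlapped between genotypes, at 0.250% and 0.232% in KO libraries versus 0.244% and 0.285% in controls. In the other classes both KO libraries were below both controls. All 10 mRNAs lay below the median of the genes with their exon number, by the way in which they were chosen.

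**Figure D3:**
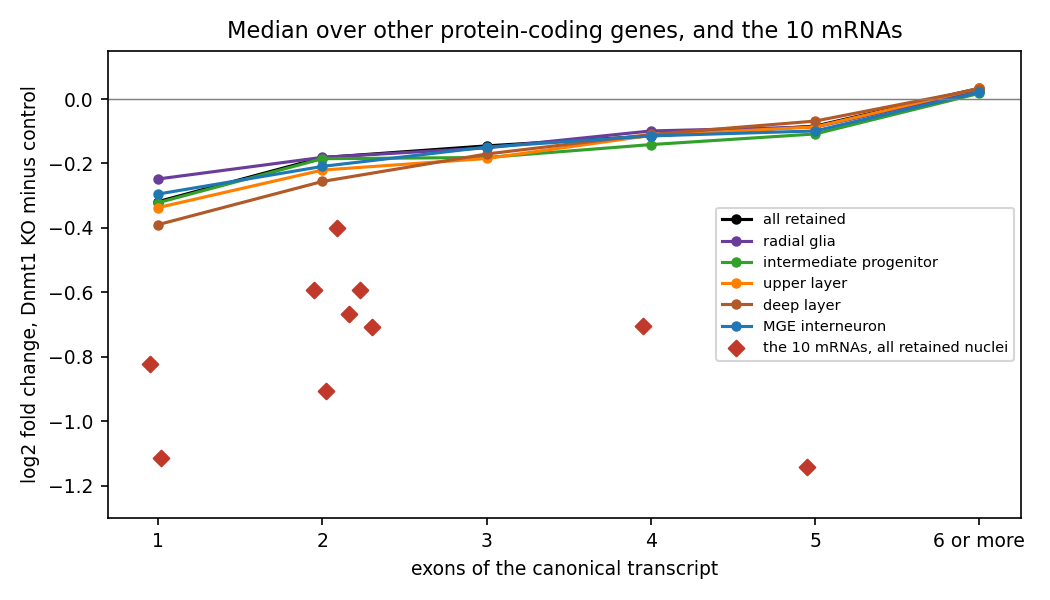
Median log2 fold change (Dnmt1 KO minus control) of all other tested protein-coding genes against the number of exons of the canonical transcript, with 1 line per population of nuclei, and the 10 mRNAs over all retained nuclei as diamonds. The lines climb from between -0.39 and -0.25 at 1 exon to between 0.02 and 0.03 at 6 or more, and the 10 diamonds lie from -1.14 to -0.40.

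Relatives of the 10 genes in the same families were also compared, and many of them have few exons too. None of the 13 relatives, and none of the 108 listed genes outside the 10 that could be tested, passed edgeR's adjusted p of 0.05 over all retained nuclei. Of the 108, 21 had an unadjusted p below 0.05, against 1612 of the 21516 genes tested. DESeq2 called 4 of them (Tubb3, Tubb5, Tmsb4x and Hspa5), among its 196 genes. In the 5 classes none passed either, with 10 to 24 at an unadjusted p below 0.05 and 0 called by DESeq2, but without Dnmt1 KO replicate 2 edgeR called 3 in radial glia-like and 3 in deep layer-like nuclei, and without Dnmt1 KO replicate 1 it called 1 in radial glia-like nuclei. Among all genes tested in a class, 13013 to 15794, an unadjusted p below 0.05 was reached by 406 to 898. The lists were chosen with earlier results of these data known, so their counts are a description. Of the 13 relatives, 11 had a negative fold change over all retained nuclei, with a median of -0.27 against -0.01 over all genes tested. H3f3a, the other H3.3 gene, was at 47.6 and 45.3 CPM in KO libraries versus 51.5 and 51.9 CPM in controls, a fold change of -0.17 ± 0.09 (edgeR adjusted p = 0.659) against -0.70 for H3f3b. Cstf2, the multi-exon parent of Cstf2t with 14 exons, was at 27.8 and 30.3 CPM against 33.8 and 29.4 CPM, so its groups overlapped.

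Ptms, the relative of Ptma, had a fold change of -0.63 ± 0.24, Mex3b -0.55 ± 0.16, Fem1c -0.51 ± 0.10 and Fem1a -0.45 ± 0.12. Mex3a and Mex3d, with 2 exons as in Mex3b, had -0.15 ± 0.11 and -0.15 ± 0.13. Irs1, a 2-exon gene whose span of 58517 bases is longer than that of Irs2, had 0.28 ± 0.21, with Dnmt1 KO replicate 1 at 103 CPM and the other 3 libraries at 66.5 to 71.1 CPM. Among the partners of the 10 proteins, the H3.3 deposition list (7 genes) had a median of 0.01, insulin and IGF signalling (12 genes) -2.8e-05, 3′-end processing (9 genes) 0.003 and the CUL2 ligase (6 genes) -0.14. Daxx, the H3.3 chaperone, was lowest in its list at -0.40 ± 0.15, and Foxo1, a transcription factor restrained by insulin signalling, was highest in its list at 0.59 ± 0.16. The kinase list (7 genes) had a median of -0.09, with the calmodulin gene Calm2 at -0.49 ± 0.11 at its lower end. Irs4 was at 0.173 CPM or less in every library. Under edgeR no gene of these lists passed the adjusted threshold in either direction.

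Immediate early genes, which cells induce within minutes of a stimulus, had a median of -0.01 over all retained nuclei (14 tested) but -0.91 in deep layer-like nuclei. There all 7 tested were negative, 4 had an unadjusted p below 0.05 and 0 were called by edgeR or DESeq2. All 15 listed immediate early genes, tested or not, summed in that class to 25.6 and 21.2 CPM in KO libraries versus 35.1 and 40.2 CPM in controls (exact permutation p = 0.333, two-sided). Both KO libraries were also below both controls over all retained nuclei, at 37.3 and 33.8 CPM against 39.6 and 40.9 CPM, and in upper layer-like nuclei, whereas the libraries overlapped in the other 3 classes. Heat shock genes (5 tested) had a median of -0.40 over all retained nuclei, where DESeq2 called Hspa5, at 0.60 ± 0.09 in the edgeR fit, and edgeR called none. All 7 listed heat shock genes summed to 119 and 103 CPM in KO libraries versus 109 and 119 CPM in controls, so the genotypes overlapped, as they did in 3 classes. Both KO libraries were below both controls in deep layer-like nuclei, at 76.5 and 79.3 CPM against 88.1 and 96.8 CPM, and in MGE interneuron-like nuclei, at 89.7 and 85.6 CPM against 103 and 105 CPM. The part of these stress genes in the lower levels of the 10 mRNAs was not tested.

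Gene groups that track cytoplasmic or nuclear RNA were summed in the same libraries. A list of 20 other short abundant cytoplasmic mRNAs had 18 negative fold changes and a median of -0.33 over all retained nuclei. The list was chosen with earlier results of these data known, so the count is a description. Among other protein-coding genes, fold changes were negative for 75.8% of those with 1 exon, 66.5% with 2 and 43.2% with 6 or more. In the classes 12 (MGE interneuron-like) to 18 (upper layer-like) of the 20 were negative, with medians from -0.43 in deep layer-like to -0.22 in MGE interneuron-like nuclei. Over all retained nuclei they summed to 1317 and 1443 CPM in KO libraries versus 1557 and 1597 CPM in controls. Tubb3, a neuronal beta-tubulin, was lowest of these at -0.83 ± 0.17, and Nnat, an imprinted proteolipid gene, was highest at 0.42 ± 0.33. Nnat was at 181 and 242 CPM in KO libraries versus 206 and 109 CPM in controls, so its groups overlapped and control replicate 2 was the low library. Nuclear long noncoding RNAs, a list of 10, summed to 17084 and 16019 CPM in KO libraries versus 15228 and 13815 CPM in controls, the opposite order, with Kcnq1ot1 at 0.30 ± 0.12 and Pantr1 at -0.50 ± 0.15. Within classes the genotypes overlapped in this sum in both the upper and the deep layer-like class and kept that order in the other 3. Upper layer-like nuclei made up 5.90% and 9.16% of retained nuclei in KO libraries versus 13.2% and 20.9% in controls. Mitochondrial transcripts summed to 140 and 145 CPM in KO libraries versus 283 and 183 CPM in controls, and they overlapped between genotypes in radial glia-like nuclei alone of the 5 classes. For each of these 3 sums over all retained nuclei the exact permutation test, two-sided, gave p = 0.333, the smallest value 2 libraries against 2 allow.

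Cytosolic ribosomal protein mRNAs did not separate the genotypes over all retained nuclei. The 76 genes summed to 561 and 519 CPM in KO libraries versus 538 and 620 CPM in controls (exact permutation p = 0.667, two-sided), and they also overlapped in radial glia-like and intermediate progenitor-like nuclei. In upper layer-like, deep layer-like and MGE interneuron-like nuclei both Dnmt1 KO libraries were below both controls, at 361 and 418 CPM against 427 and 489 CPM in the deep layer-like class. Hemoglobin mRNAs summed to 3.24 and 8.68 CPM in KO libraries versus 9.02 and 1.61 CPM in controls (p = 1, exact permutation), a marker of blood that did not follow genotype. The part of cytoplasmic RNA content in the lower levels was not tested.

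Nuclei were also split into 3 equal groups by their ribosomal share. In the group of lowest share the 10 mRNAs summed to 167 and 159 CPM in KO libraries versus 244 and 260 CPM in controls. In the group of highest share they summed to 270 and 226 CPM against 346 and 421 CPM, and the middle group lay between in each library. The summed level was thus higher with the higher ribosomal share in all 4 libraries. Both Dnmt1 KO libraries were below both controls in each group. That is the order for which the genes were chosen, in the same libraries, so nothing is read from it. The groups were cut over all nuclei together, without holding class or depth. Their limits were ribosomal shares of 0.040% and 0.064%, so a nucleus was placed by few ribosomal transcripts. In Dnmt1 KO replicate 1, radial glia-like nuclei held 976 CPM of ribosomal protein mRNAs and 335 CPM of the 10 mRNAs. Deep layer-like nuclei of that library held 361 and 148 CPM. By depth, barcodes of 1500 to 4999 transcripts in that library held 839 CPM of ribosomal protein mRNAs and 295 CPM of the 10 mRNAs. Those of 15000 to 60000 transcripts held 482 and 180 CPM. In control replicate 1 the same ranges held 513 and 293 CPM, then 500 and 260 CPM. Whether the order over the groups holds within a class or a depth range was not tested.

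The 10 mRNAs were also summed by the depth of the barcode. In barcodes of 15000 to 60000 transcripts the 10 mRNAs summed to 180 and 164 CPM in KO libraries versus 260 and 326 CPM in controls, and in those of 5000 to 14999 to 232 and 200.2 CPM against 311 and 413 CPM. In barcodes of 1500 to 4999 transcripts, 268 to 609 per library, they summed to 295 and 325 CPM in KO libraries versus 293 and 529 CPM in controls. Control replicate 1 was thus level with Dnmt1 KO in these shallow barcodes, and control replicate 2 alone was higher.

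Barcodes below the limit were not retained and hold free RNA along with shallow nuclei. Those of 500 to 1499 transcripts held 119 and 169 CPM in KO libraries versus 121 and 355 CPM in controls, from 208 to 605 transcripts of the 10 genes per library. Those of 100 to 499 held 122 and 140 CPM against 144 and 325 CPM. Those of 10 to 99 held 158 and 181 CPM against 217 and 427 CPM. Control replicate 1 was inside the Dnmt1 KO range in the first of these and above it in the other two, and control replicate 2 was the highest library in each. In barcodes of over 60000 transcripts, 9 to 429 per library, the sums were 236 and 219 CPM in KO libraries versus 346 and 339 CPM in controls, where the 2 controls were close.

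**Figure D4:**
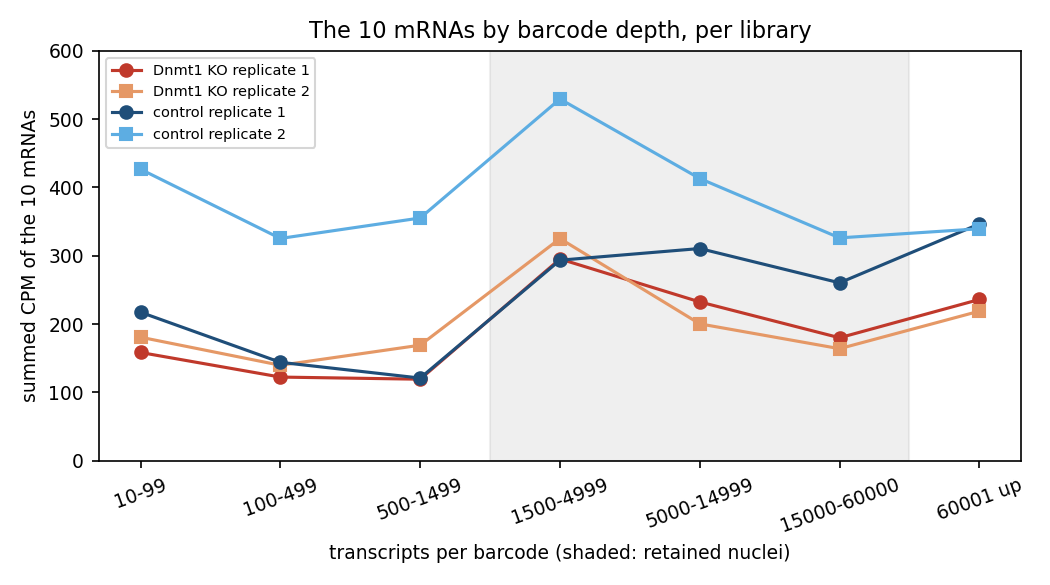
Summed CPM of the 10 mRNAs against the number of transcripts per barcode, with 1 line per library and the retained range shaded. Control replicate 1, at 121 CPM and 293 CPM in the 500 to 1499 and 1500 to 4999 ranges, is not above both Dnmt1 KO libraries there and is above both in the other 5 ranges, while control replicate 2 is highest in every range but the last.

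Batch could be held fixed in part, since 3 libraries shared batch 1. Taking the mean over the 10 genes of log2(CPM + 1), the difference between genotypes was -0.69 over all 4 libraries and -0.58 without control replicate 2, which leaves batch 1 alone with 1 control. Batch 2 held 1 control library and no Dnmt1 KO library, so it gives no value of its own. Within each of the 8 sublibraries that batch 1 libraries were split into, the difference was between -0.65 and -0.50. Summed levels over those sublibraries ran from 196 to 214 CPM in Dnmt1 KO replicate 1 and from 175 to 186 CPM in Dnmt1 KO replicate 2. In control replicate 1 they ran from 276 to 290.0 CPM. The genotypes did not overlap, which is the order for which the genes were chosen, so nothing is read from it. The 2 sublibraries of control replicate 2 were at 322 and 349 CPM. Sublibraries of a library come from the same nuclei suspension and are not replicates of a genotype, so within batch 1 genotype and the individual control library cannot be told apart. The part of batch in the lower levels was not tested beyond these values.

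Differences between classes within the same libraries do not use the genotype contrast and were tested with library as a block (edgeR). Excitatory nuclei, the upper and deep layer-like classes together, were the reference. Scaling mattered here, since the trimmed mean of M-values (TMM) and plain library totals differed by 0.59 on the log2 scale for radial glia-like, 0.46 for intermediate progenitor-like and 0.12 for MGE interneuron-like nuclei in the median over all genes. TMM values are relative to the typical gene and are given first.

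Relative to the typical gene, radial glia-like nuclei had more Irs2 and Marcks. Irs2 ranged from 24.7 to 67.6 CPM over the libraries in radial glia-like nuclei, with both KO libraries at the low end, and averaged 11.6 ± 3.94 CPM (SD, n = 4 libraries) in excitatory nuclei. It was higher in 4 of 4 libraries, by 1.30 ± 0.12 (edgeR adjusted p = 2.46e-07) and by 1.89 with library totals. Marcks averaged 135 ± 35.5 CPM against 60.2 ± 19.3 CPM, a difference of 0.60 ± 0.06 (edgeR adjusted p = 7.46e-07), and Zfp146 and H3f3b were higher by 0.38 ± 0.08 and 0.32 ± 0.11. In all, 4 of the 10 genes were called higher (background 35.5%) and 1 lower (background 40.0%). Without Dnmt1 KO replicate 2, H3f3b lost its call (edgeR adjusted p = 0.0954). The gene called lower, Marcksl1 at -0.43 ± 0.08, turned to 0.15 with library totals and was higher in CPM in 3 of 4 libraries.

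Intermediate progenitor-like nuclei had less Irf2bpl. It averaged 2.54 ± 1.52 CPM against 6.93 ± 2.27 CPM in excitatory nuclei, lower in 4 of 4 libraries by -1.94 ± 0.27 (edgeR adjusted p = 2.27e-05) and by -1.49 with library totals. H3f3b, Marcks and Zfp146 were higher by 0.63 ± 0.12, 0.55 ± 0.06 and 0.53 ± 0.08. Of the 10 genes, 3 were called higher (background 31.0%) and 5 lower (background 32.6%). Of those 5, Ptma, Marcksl1, Fem1b and Cstf2t, at -0.40 to -0.19, were all above 0 with library totals, at 0.05 to 0.26, and Irf2bpl alone kept its sign. With library totals 5 were called higher (57.8% of all genes) and 1 lower (18.5%). Under DESeq2 Ptma and Cstf2t lost their calls, and Cstf2t also lost its call with doublets removed. The 8 calls became 5 without control replicate 1, 5 without control replicate 2 and 5 with the gate on thinned nuclei, with Ptma and Cstf2t losing theirs each time, Fem1b in the latter pair of settings and Marcksl1 in the first. Cstf2t also lost its call without Dnmt1 KO replicate 2, and Fem1b and Ptma lost theirs without Dnmt1 KO replicate 1, where Fem1b was at -0.14 against -0.27 with all 4 libraries.

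MGE interneuron-like nuclei, the class nearest to the Sst lineage, had few called differences from excitatory nuclei in these genes. Ptma was the only one called, lower by -0.39 ± 0.08 (edgeR adjusted p = 0.00124) at 25.3 ± 12.5 CPM against 31.0 ± 16.9 CPM, and it was lower in 4 of 4 libraries and under both scalings. Without Dnmt1 KO replicate 1 Marcksl1 was called as well, at -0.26. The background was 20.7% of genes lower and 16.9% higher, against 1 and 0 of the 10 genes. The other 9 did not pass the test, with differences from -0.20 for Marcksl1 to 0.27 for Irf2bpl. Of these, Marcks, Zfp146 and Irf2bpl were higher in CPM in 4 of 4 libraries, and no other was higher or lower in all 4. With library totals Marcks (0.22) and Zfp146 (0.26) were called higher, as were 26.6% of all genes. The SDs between libraries include the genotypes, which the block removes from the test.

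**Figure D5:**
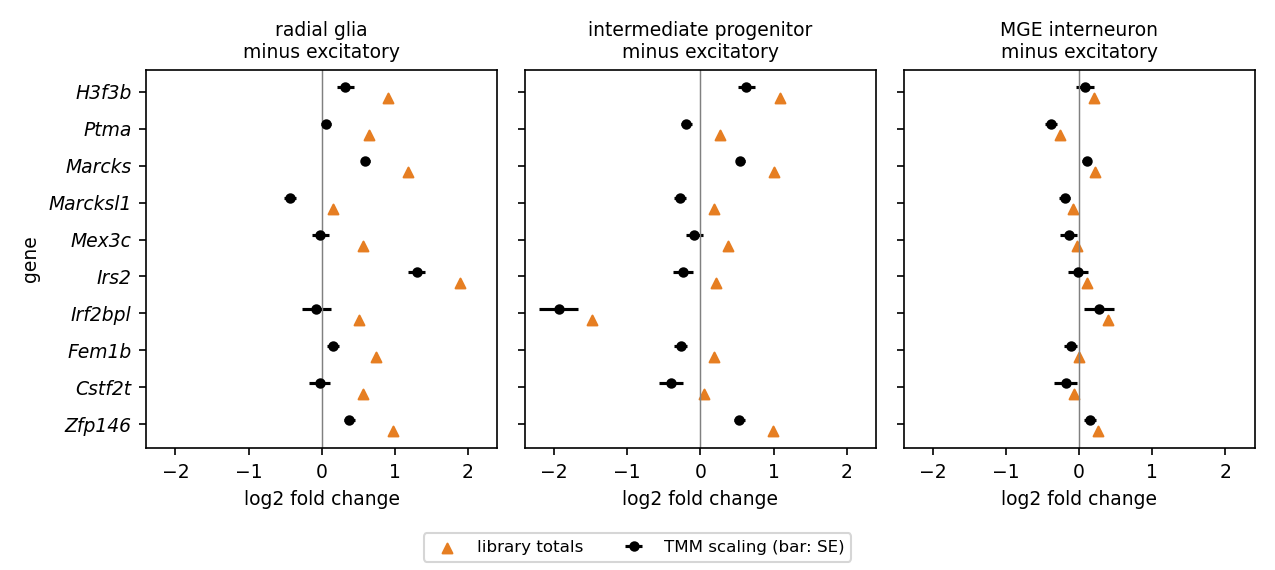
Log2 fold change of the 10 mRNAs in 3 classes minus excitatory nuclei, by edgeR with TMM scaling (circles, bars are SE) and with library totals (triangles). Irs2 in radial glia-like nuclei at 1.30 and Irf2bpl in intermediate progenitor-like nuclei at -1.94 stand out under both scalings, and library totals move all radial glia-like values to the right.

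Across the 4 libraries and 5 classes, 20 points that share libraries and depth, Fem1b followed the mean of the other 9 genes most closely (Pearson's r = 0.94) and Irf2bpl least (r = 0.30). Among 8280 other genes with at least 10 CPM on average, the 5 with the profile most like the mean of the 10 were Rbm15b (r = 0.96), Crk (0.94), Hnrnpul2 (0.93), Pank3 (0.92) and Fbxo45 (0.92). Rbm15b, an RNA-binding protein gene, has a single exon and was at 9.92 and 8.23 CPM in KO libraries versus 11.2 and 13.5 CPM in controls. Hnrnpul2 has 14 exons and Pank3 has 7, so the likeness was not limited to intron-poor genes. Points of a genotype differ together, so these correlations describe the profile and carry no test.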

How the data were processed

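Nuclei from frozen E16.5 medial neocortex were isolated on sucrose, fixed and profiled with a split-pool whole-transcriptome kit. The deposited values are raw transcript counts per gene and barcode, which the authors made with Trailmaker (version, annotation release and use of introns or strand not given in the sources used here); the submitters' processing notes name mm39, R 4.4.1 and Seurat 5.0.1.9001. The labels give 2 libraries per genotype, from separate mice by the study's description.

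Retained nuclei had 1500 to 60000 transcripts; mitochondrial shares stayed below the authors' limit. Classes were gated by the mean clipped z-score of fixed markers (score of at least 0.5, margin of at least 0.3, 14 marker lists), and 12.5% to 15.3% of nuclei lay within 0.1 of a limit. Doublets marked by scrublet (2.87% to 7.73%) were kept, and removed as an alternative. Counts were summed per library and class and given as CPM. edgeR 4.0.16 (R 4.3.3) quasi-likelihood tests with Benjamini-Hochberg adjustment compared genotypes (group alone) and classes (library plus class), and DESeq2 1.42.0 was an alternative. With 2 libraries per genotype, p-values measure only the spread between these libraries. In 5 tables of counts simulated for the genotype fit over all retained nuclei (21598 to 21648 genes), 82% of genes changed by 1 and 99.8% of genes changed by 2 on the log2 scale were recovered. The simulation gave every gene the same low dispersion, changed only well-counted genes and held no batch effect. It therefore does not say how many real changes of that size the fit would miss. Gene structure came from GENCODE (GRCm39), in which 56323 of 56884 genes were matched.

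The 10 genes and the lists were chosen with earlier results of these data known. The rule for naming genes allowed all 10, at most 4 genes per list (those called, otherwise the 2 highest and 2 lowest), and the 5 genes of most similar profile; of the list genes so selected the text gives a part, chosen after their values were seen. In the list of relatives H3f3a, Cstf2, Fem1a, Fem1c, Mex3a and Mex3d, and elsewhere Tubb5 and Tmsb4x, were named after their values were seen. A further gene that the rule names is not reported here.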

Additional observations from a re-analysis of the deposited data

How the results depend on the processing

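The mean difference of the 10 mRNAs between genotypes kept its direction in all 76 alternative settings run over all retained nuclei and the 5 classes, from -0.93 to -0.50. These settings reuse the libraries on which the genes were chosen, so the direction was given in advance and nothing is read from it. The difference moved by more than the spread between replicates within sublibrary s6 (-0.50) and s7 (-0.55) of batch 1. These sublibrary values also leave out control replicate 2, without which the difference was -0.58 over all sublibraries. It moved as well in deep layer-like nuclei with no upper limit on transcripts (-0.77) or thinned nuclei (-0.86). In MGE interneuron-like nuclei it moved with TMM scaling (-0.59) or DESeq2 size factors (-0.59). No listed gene outside the 10 was called by edgeR in any population; without a filter on low counts it called 1 in radial glia-like, 5 in intermediate progenitor-like, 3 in upper layer-like, 13 in deep layer-like and 3 in MGE interneuron-like nuclei, DESeq2 called 4 over all retained nuclei, and leaving out 1 library gave 0 to 3 in radial glia-like and 0 to 3 in deep layer-like nuclei. Fits with 3 libraries assume that the lone library of a genotype varies like the pair. Deviations of same-numbered libraries from their group means had a correlation of -0.06 over 21516 genes. With 2 libraries per genotype, and control replicate 2 in its own batch, this value cannot show whether the numbers pair the libraries. With the replicate number as a block, 0 listed genes were called in each population. Batch as a covariate in effect leaves out control replicate 2, and then Irf2bpl in radial glia-like nuclei was at 0.026; leaving out single libraries gave -1.04 to 0.024 there and -0.70 to 0.10 in MGE interneuron-like nuclei.

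Class counts moved with library totals, a setting chosen after seeing the data. Radial glia-like nuclei then had 9 calls, all higher (60.9% of all genes were called higher and 21.7% lower with that scaling). MGE interneuron-like nuclei had 3 calls, 2 of them higher (26.6% higher and 15.5% lower). With the gate on thinned nuclei, intermediate progenitor-like nuclei had 5 calls. Leaving out single libraries gave 4 to 6 calls in radial glia-like, 5 to 7 in intermediate progenitor-like and 1 to 2 in MGE interneuron-like nuclei. Signs turned with library totals in radial glia-like nuclei for Marcksl1 (0.15), Mex3c (0.57), Irf2bpl (0.52) and Cstf2t (0.56), in intermediate progenitor-like nuclei for Ptma (0.26), Marcksl1 (0.18), Mex3c (0.37), Irs2 (0.22), Fem1b (0.19) and Cstf2t (0.051), and in MGE interneuron-like nuclei for Irs2 (0.10) and Fem1b (0.0046). Among genes that passed no test, signs also turned with the gate on thinned nuclei for Mex3c (0.098) and Irf2bpl (0.083) in radial glia-like, Mex3c (0.052) and Irs2 (0.037) in intermediate progenitor-like and Irs2 (0.13) in MGE interneuron-like nuclei, with DESeq2 for Mex3c (0.057), Irf2bpl (0.0021) and Cstf2t (0.049) in radial glia-like and Irs2 (0.0067) in MGE interneuron-like nuclei, and with doublets removed for Cstf2t (0.010) in radial glia-like nuclei. Leaving out single libraries gave -0.11 to 0.086 for Mex3c, -0.22 to 0.11 for Irf2bpl and -0.044 to 0.036 for Cstf2t in radial glia-like nuclei, -0.20 to 0.018 for Mex3c in intermediate progenitor-like nuclei and -0.080 to 0.067 for Irs2 in MGE interneuron-like nuclei. The cause of these changes was not tested beyond the scaling itself. The 2 libraries per genotype and the 1 control in batch 1 limit every genotype comparison; mRNAs at a few CPM, such as Irf2bpl and Cstf2t, rest on under 100 transcripts in most class sums.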
